A study of Rattus norvegicus with 12 samples.

Results

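Genes of mitochondrial oxidative phosphorylation were examined in bronchi of rats that had inhaled 2,3-pentanedione (PD), a diketone of butter flavorings, or air. The genes were chosen by name alone: symbols that start with Nduf followed by a, b, c, s or v and a number, the genes Sdha to Sdhd, and symbols that start with Uqcr, with Cox4 to Cox8 or with Atp5. They numbered 79 of the 14217 genes that had a probe set of their own on the array. Complex I contributed 35 of them, complex II 4, complex III 7, complex IV 17 and complex V 16. Subunits encoded by the mitochondrial genome lie outside this rule, and 7 probe sets that the annotation assigns to several genes, among them those of Cox7a2 and Uqcrb, were not used.

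Complexes I to IV of the inner mitochondrial membrane pass electrons from NADH and succinate to oxygen and, except for complex II, pump protons as they do so. Complex V, the ATP synthase, uses the returning protons to make ATP. In the airway the ciliated cell is rich in mitochondria, which feed the beating of its cilia. Several subunits of complex IV exist as paralogs whose use differs between tissues, with one form common to most cells and another that is typical of muscle, brown fat, lung or testis.

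The rats were male Wistar Han animals, 6 to 7 weeks of age when they arrived. They breathed either filtered air or 200 ppm PD, 6 hours daily, on 12 days within 2 weeks. Controls were bronchi of air-exposed rats (6 arrays, replicates 1 to 6). Tissue of PD-exposed rats was of 2 kinds, fibrotic bronchi (3 arrays, replicates 3, 7 and 9) and nonfibrotic bronchi (3 arrays, replicates 4, 8 and 10). Fibrotic specimens were described as lesions that protruded into the lumen together with the wall under them, whereas the other specimens consisted of lining epithelium and the wall beneath. Both kinds of exposed tissue came partly from the same animals, and since no label ties a specimen to an animal, p-values do not allow for it. In such bulk samples, fewer cells of a type and less RNA per cell cannot be told apart.

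Values are log2 of the MAS5 signal, on which a difference of 1 is a doubling. The signal is comparable between arrays for one gene but not between genes. A level of absence was taken from bacterial transcripts. These were Trpn on all arrays and, on controls 1 and 2 only, the transcripts used as poly-A controls. That the latter had not been added to controls 1 and 2 was inferred from their low signal there. The values taken reached a log2 signal of at most 6.52, and values under that level were read as not distinguishable from absence. Of the 79 genes, 74 had a mean over the 12 arrays above this level and 64 had a mean of at least 10. The median of these means was 11.34 for the 79 genes and 8.40 for all genes. Ndufa4l2, Ndufb8, Cox6c-ps1, Cox7b2 and Cox8b lay under it on average. A limma model was fitted to all 31042 probe sets, and calls were made at 0.01 after Benjamini-Hochberg adjustment.

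The 6 controls were not uniform. Controls 1 and 2 carry sample labels of one form, shared with all exposed arrays, and controls 3 to 6 carry labels of another form. The mean log2 ratio of 3′ to 5′ GAPDH probe sets, a measure of RNA length, was 1.60 for controls 1 and 2, 0.78 for controls 3 to 6 and 2.03 for the exposed arrays. The 99th percentile of log2 signal ranged from 12.88 to 12.98 in controls 1 and 2, from 12.52 to 12.67 in controls 3 to 6 and from 12.75 to 13.05 on the exposed arrays. Another measure grouped the arrays differently: poly-A control transcripts had a mean log2 signal of 2.32 in controls 1 and 2, of 10.35 in controls 3 to 6 and of 10.07 on the exposed arrays. Cell type markers differed as well, by summed linear signal. Basal cell markers reached 6955 to 11157 in controls 1 and 2 and 830 to 4681 in controls 3 to 6. Club cell markers reached 145619 to 192746 and 82033 to 119190. Alveolar type II markers were lower in controls 1 and 2, at 32525 to 35039 against 36587 to 54813, and ciliated cell markers overlapped. The oxidative phosphorylation genes separated these sets as well: 40 of 79 (50.6%) were lower on both of controls 1 and 2 than on every one of controls 3 to 6, against 26.4% of all genes. The median difference between the sets was -0.33 for the 79 genes and -0.13 for all genes. One gene passed the test, Ndufc1, a small accessory subunit of complex I, which was lower by 1.52 in controls 1 and 2 (-1.52 ± 0.23 SE, adjusted p = 0.00591). The call was lost when any one of the 6 controls was left out. Of all genes, 0.204% were called lower and 0.401% higher in this comparison. Differences in the other direction also occurred: Ndufa1, a complex I subunit, had log2 signals of 14.13 and 14.37 in controls 1 and 2 and between 13.38 and 13.67 in controls 3 to 6 (adjusted p = 0.0414). For this reason the main comparisons with controls are given for all 6 and for each set apart.

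Signals of most oxidative phosphorylation genes were lower in fibrotic bronchi than in controls, and the size of the shift was modest. Differences were negative for 59 of 79 genes (74.7%), against 45.4% of all genes, and the median difference was -0.34 against 0.10. Without fibrotic array 9 the median of the 79 genes was -0.20. At the threshold 7 genes fell and none rose. The 7 genes are 8.86% of 79, close to the share of all genes that fell, 8.38%, while 4.13% of all genes rose. At an adjusted p under 0.05, 20 genes fell (25.3%, against 12.4% of all genes) and 1 rose (against 10% of all genes). On 20 of 79 genes every fibrotic array lay under every control array, against 13.4% of all genes, and 2 genes had all fibrotic arrays above all controls, against 15.1% of all genes. Ciliated cell markers fell in the same arrays, all 13 of 13 measured, and their summed linear signal dropped from a range of 54430 to 76133 in controls to 2952 to 5277 in fibrotic bronchi. Club cell markers fell for 11 of 13 genes, fibroblast markers rose for 5 of 11 genes and macrophage markers for 8 of 12. The part of these cell types in the differences of the oxidative phosphorylation genes was not tested.

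**Figure D1:**
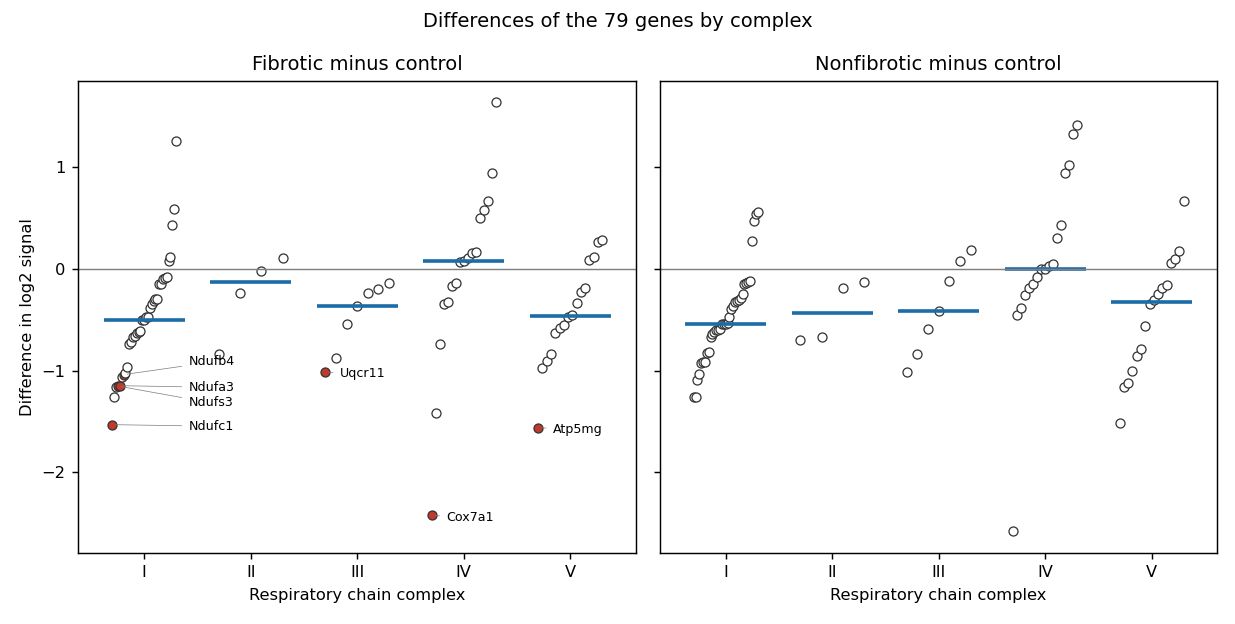
Difference in log2 signal of each of the 79 genes (points) by complex, fibrotic minus control on the left and nonfibrotic minus control on the right, with the median of each complex as a blue line. Red points are the 7 genes that passed the test in fibrotic bronchi. No gene passed it in nonfibrotic bronchi, and the medians of complexes I, III and V lie below 0 in both panels while that of complex IV lies near 0.

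The count depended on which controls were used. Against controls 3 to 6 alone, 17 genes fell (21.5%, against 10.3% of all genes) and none rose (6.79% of all genes). After quantile normalization, with all controls, 11 genes fell (13.9%, against 8.25% of all genes). Against controls 1 and 2 alone, the median difference was -0.25, 51 of 79 differences were negative and no gene passed the test, whereas 1.73% of all genes fell and 0.281% rose. With limma no gene reached an adjusted p under 0.05 there either (4.02% of all genes fell and 1.87% rose at that level). On 24 of 79 genes (30.4%, against 18.2% of all genes) the fibrotic arrays lay under both of these controls. With the form of the labels as a fixed block, no gene was called. That fit in effect sets the exposed arrays against controls 1 and 2, and its median was the same, -0.25. Leaving out fibrotic array 9 also brought the count to 0, fibrotic array 3 to 2, fibrotic array 7 to 3 and any one of controls 3 to 6 to 4, and leaving out control 1 raised it to 14.

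Complex I, the NADH dehydrogenase, is the complex with the most genes. Differences were negative for 30 of its 35 genes, and 4 genes fell (11.4%, against 8.38% of all genes). The median was -0.50 against all controls, -0.26 against controls 1 and 2 alone and -0.63 against controls 3 to 6 alone. Ndufa3, an accessory subunit of the membrane arm, had log2 signals of 11.70, 11.73, 11.98, 12.18, 12.36 and 12.19 in controls 1 to 6, of 10.97, 10.96 and 10.69 in fibrotic bronchi and of 11.54, 11.39 and 10.71 in nonfibrotic bronchi. All exposed arrays lay under all controls. The gene fell by 1.15 ± 0.22 (SE) in fibrotic bronchi (adjusted p = 0.00154). The difference was -0.84 against controls 1 and 2 alone (adjusted p = 0.163) and -1.30 against controls 3 to 6 alone (adjusted p = 0.000555).

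Ndufs3, a core subunit of the matrix arm, had log2 signals of 10.59, 11.15, 11.39, 11.48, 11.49 and 11.52 in controls and of 10.11, 10.39 and 9.85 in fibrotic bronchi. The fibrotic arrays lay under all controls, nearest to control 1, and the gene fell by 1.15 ± 0.23 (SE, adjusted p = 0.00251). Its nonfibrotic values of 10.78, 10.70 and 10.46 overlapped with control 1 and lay above every fibrotic value. The fibrotic difference was -0.75 with controls 1 and 2 alone (adjusted p = 0.26) and -1.35 with controls 3 to 6 alone (adjusted p = 0.000175).

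Ndufb4, another accessory subunit of the membrane arm, had log2 signals of 11.77, 12.30, 12.23, 12.31, 12.48 and 12.32 in controls and of 11.73, 11.07 and 10.79 in fibrotic bronchi. Fibrotic array 3 and control 1 differed little, and the other fibrotic arrays were clearly lower (-1.04 ± 0.22 SE, adjusted p = 0.00344). With controls 1 and 2 alone the difference was -0.84 (adjusted p = 0.188), and with controls 3 to 6 alone it was -1.14 (adjusted p = 0.00166). In nonfibrotic bronchi, at 11.89, 12.09 and 11.65, the difference from controls of -0.36 did not pass the threshold (limma, adjusted p = 0.302).

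Ndufc1 was the gene of complex I with the largest fall, by 1.53 ± 0.37 (SE, adjusted p = 0.00927), and was the only gene of this complex called between the sets of controls. Its log2 signals were 9.37 and 9.56 in controls 1 and 2 and 10.76, 11.08, 11.06 and 11.01 in controls 3 to 6. Fibrotic values of 8.84, 9.15 and 8.83 lay under both sets, and nonfibrotic values of 9.38, 9.49 and 9.28 lay close to controls 1 and 2. Against controls 1 and 2 alone the fibrotic difference was -0.52 (adjusted p = 0.554), and against controls 3 to 6 alone it was -2.04 (adjusted p = 1.8e-05).

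Other complex I genes missed the threshold. Ndufv3 differed by -1.16 (adjusted p = 0.0138), Ndufs7, which carries an iron-sulfur cluster, by -1.07 (adjusted p = 0.0141), and Ndufa11 by -1.26 (adjusted p = 0.0265). Ndufa4, counted here by its name although it is also described as a subunit of complex IV, differed by -0.50 (adjusted p = 0.0713). A second, dimmer probe set of Ndufv3 showed a difference of 0.04, so that the probe sets of this gene disagreed. Among the 8 genes with more than 1 probe set, none was called by its second probe set when all 6 controls were used.

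Complex II oxidizes succinate and is shared with the citric acid cycle. None of its 4 genes was called in fibrotic bronchi, where 8.38% of all genes fell and 4.13% rose. The median difference was -0.13 (-0.05 with controls 1 and 2 alone, -0.17 with controls 3 to 6 alone). It was -0.26 without fibrotic array 7 and 0.019 without fibrotic array 9. Sdhc, a membrane anchor, had the largest difference, -0.83 (adjusted p = 0.04). Its log2 signals were 10.59 and 10.65 in controls 1 and 2, from 11.39 to 11.45 in controls 3 to 6, and 10.54, 10.36 and 10.07 in fibrotic bronchi. The fibrotic arrays lay under both sets but close to the first. Sdha, the flavoprotein, differed by -0.24 with a 95% interval from -0.57 to 0.09, Sdhb, the iron-sulfur subunit, by -0.02 with an interval from -0.47 to 0.42, and Sdhd, the other anchor, by 0.11 with an interval from -0.67 to 0.88. The sign of the differences of Sdhb and Sdhd depended on the normalization or on the arrays used.

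Complex III passes electrons from ubiquinol to cytochrome c. In fibrotic bronchi 1 of its 7 genes fell (14.3%, against 8.38% of all genes), and all 7 differences were negative. Their median was -0.36, with -0.30 against controls 1 and 2 alone and -0.42 against controls 3 to 6 alone, and it was -0.17 without fibrotic array 9. Uqcr11, its smallest subunit, had log2 signals of 12.33, 12.64, 12.20, 12.33, 12.36 and 12.37 in controls, of 11.61, 11.44 and 11.02 in fibrotic bronchi and of 12.08, 10.98 and 11.01 in nonfibrotic bronchi. All exposed arrays lay under all controls, and the control sets did not separate. The fall in fibrotic bronchi was 1.02 ± 0.23 (SE, adjusted p = 0.00652), and the same difference of -1.02 in nonfibrotic bronchi had an adjusted p of 0.0249. Against controls 1 and 2 alone the fibrotic difference was -1.13 (adjusted p = 0.102) and against controls 3 to 6 alone -0.96 (adjusted p = 0.0137), so the size was similar with either set although neither passed the threshold. Uqcr10, a small neighbor of Uqcr11, differed by -0.87 (adjusted p = 0.0531), and Uqcrfs1, the Rieske iron-sulfur protein, by -0.54 (adjusted p = 0.139). The core proteins Uqcrc1 and Uqcrc2 differed by -0.20 and -0.23, with intervals from -0.66 to 0.26 and from -0.64 to 0.17. A second, dimmer probe set of Uqcrc2 differed more, by -1.24 (limma, adjusted p = 0.0374). For that probe set the difference was -0.62 against controls 1 and 2 alone (adjusted p = 0.654). Against controls 3 to 6 alone it was -1.55 (adjusted p = 0.00886), which passed the threshold.

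Complex V had a median difference of -0.47 in fibrotic bronchi (-0.27 with controls 1 and 2 alone and -0.58 with controls 3 to 6 alone). Differences were negative for 12 of 16 genes, and 1 gene fell (6.25%, against 8.38% of all genes). Atp5mg, a membrane subunit that takes part in the pairing of ATP synthases, fell by 1.56 ± 0.37 (SE, adjusted p = 0.00848). Its log2 signals were 10.97 and 10.67 in controls 1 and 2, 12.19, 12.31, 12.25 and 12.37 in controls 3 to 6, 10.64, 10.11 and 9.95 in fibrotic bronchi and 11.24, 10.33 and 10.45 in nonfibrotic bronchi. The fibrotic arrays lay under all controls, but controls 1 and 2 lay nearer to them than to the other controls. Against controls 1 and 2 alone the fibrotic difference was -0.59 (adjusted p = 0.469), and against controls 3 to 6 alone it was -2.05 (adjusted p = 5.62e-05).

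Atp5f1a and Atp5f1b encode the alpha and beta subunits of the ATP synthase. Atp5f1a just missed the threshold in fibrotic bronchi, with a difference of -0.90 (adjusted p = 0.0103), while Atp5f1b differed by -0.48 (adjusted p = 0.093). For both genes all fibrotic and all nonfibrotic arrays lay under all controls. Atp5mc3, one of the genes for the c subunit, differed by -0.83 (adjusted p = 0.018).

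**Figure D2:**
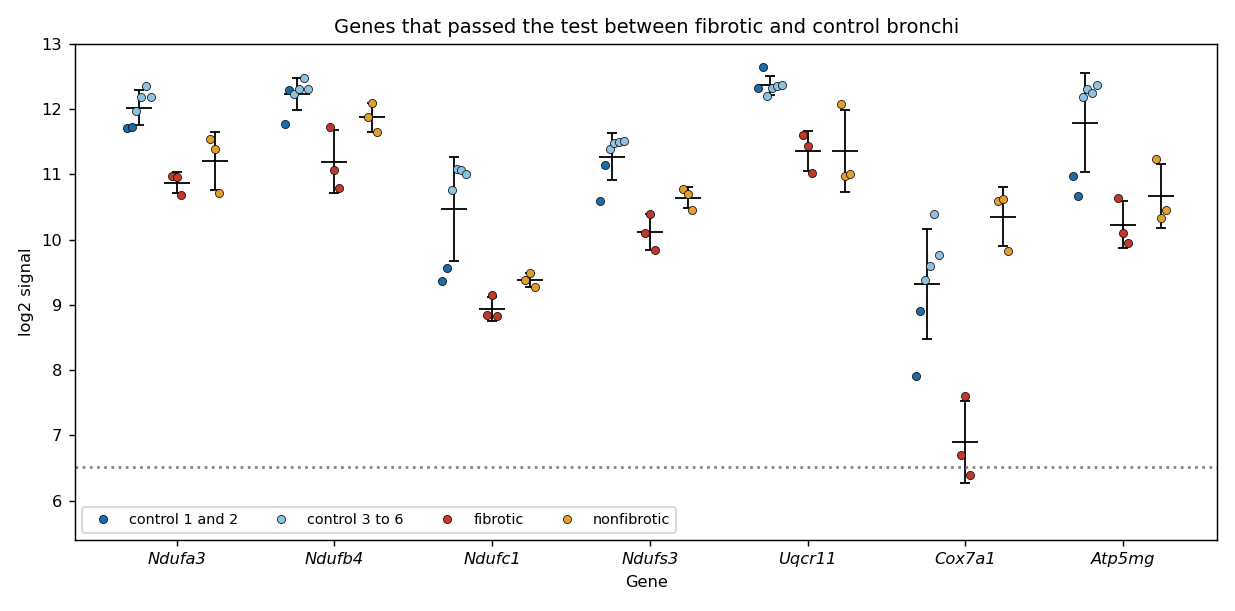
Log2 signal on each array of the 7 genes that fell in fibrotic bronchi, with group means and SD as black bars, the sets of controls in dark and light blue, fibrotic bronchi in red and nonfibrotic bronchi in orange. The dotted line is the highest signal of absent transcripts (6.52). Controls 1 and 2 lie apart from controls 3 to 6 for Ndufc1 and Atp5mg, and nonfibrotic bronchi lie far above fibrotic bronchi for Cox7a1.

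Complex IV, cytochrome c oxidase, differed from the other complexes in that its median in fibrotic bronchi was 0.07. Quantile normalization turned this to -0.07. The median was 0.04 with controls 1 and 2 alone, 0.17 with controls 3 to 6 alone and 0.19 without fibrotic array 9. Differences were positive for 10 of its 17 genes and negative for 41.2%, near the 45.4% of all genes. The 17 include Cox6c-ps1, Cox7b2 and Cox8b, whose means lay under the level of absent transcripts. Subunits present in most cells showed small differences, whose sign turned for each of those named next under at least 1 alternative. Cox4i1 differed by 0.16 with a 95% interval from -0.24 to 0.56, Cox5a by 0.11 with an interval from -0.26 to 0.48, Cox6a1 by 0.07 with an interval from -0.32 to 0.45 and Cox6c by 0.17 with an interval from -0.17 to 0.50. Cox6b1, at -0.35, and Cox8a, at -0.74, were lower, with adjusted p-values of 0.259 and 0.0406. Cox7a2l, which joins complexes III and IV in supercomplexes, had log2 signals between 11.72 and 11.96 in controls and of 12.68, 12.34 and 12.32 in fibrotic bronchi. All fibrotic arrays lay above all controls, and its difference of 0.58 did not pass the threshold (adjusted p = 0.0181).

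**Figure D3:**
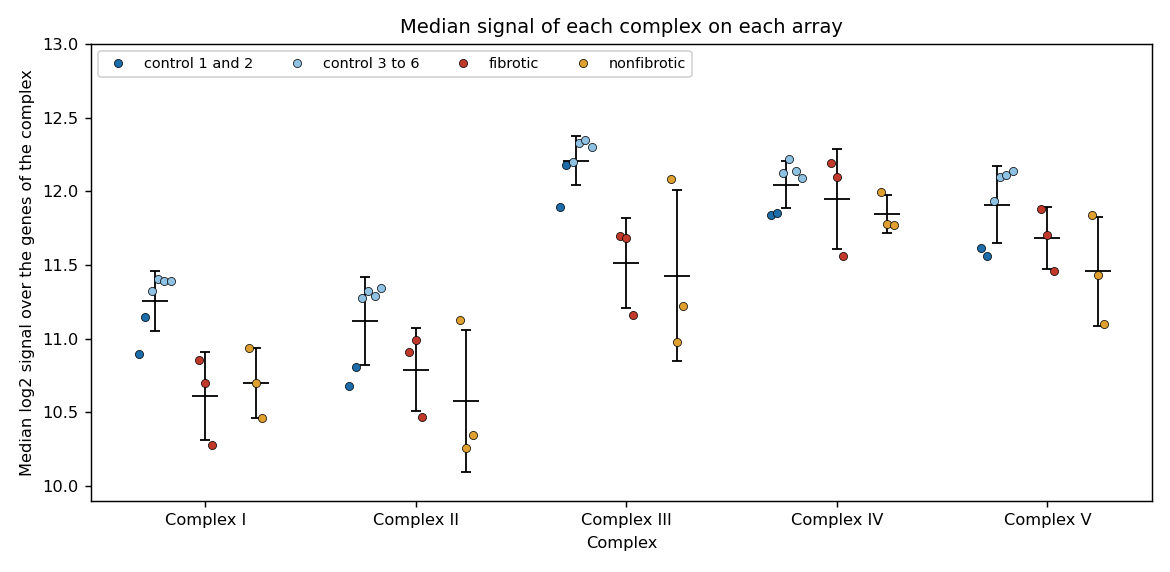
Median log2 signal over the genes of each complex on each array (points), with group means and SD of these medians as black bars. By these medians, fibrotic and nonfibrotic arrays overlap in every complex, and controls 1 and 2 lie below controls 3 to 6 in every complex. Gene by gene, however, 4 of 7 genes of complex III were higher in controls 1 and 2, with a median difference of 0.10.

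Cox7a1, the form of subunit 7a typical of heart, skeletal muscle and brown fat, departed most from the rest. Its log2 signals were 7.91, 8.91, 9.38, 9.59, 10.39 and 9.77 in controls 1 to 6, 6.70, 7.61 and 6.39 in fibrotic bronchi and 10.60, 10.63 and 9.83 in nonfibrotic bronchi. Fibrotic arrays lay under all others, 1 of them under the level of absent transcripts, and nonfibrotic arrays lay among and above the highest controls. The gene fell by 2.43 ± 0.45 (SE) in fibrotic bronchi against controls (5.38-fold, adjusted p = 0.00134). In nonfibrotic bronchi it differed from controls by 1.03 ± 0.45 (SE, adjusted p = 0.16).

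Between fibrotic and nonfibrotic bronchi Cox7a1 fell by 3.45 ± 0.52 (SE), a 10.9-fold difference (adjusted p = 0.000607). It was the only one of the 79 genes called in this comparison (1.27%), in which 3.83% of all genes fell and 1.47% rose. This difference rests on exposed arrays alone and does not involve the controls. It was called in each of the alternative fits that gave it a value, with adjusted p-values from 0.000116 to 0.0064. Against controls 1 and 2 alone, the fibrotic difference was -1.51 (adjusted p = 0.167), and against controls 3 to 6 alone it was -2.88 (adjusted p = 0.0001).

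Promoters were available for 71 of the 79 genes (RefSeq, GRCr8), and the 250 bases before the start were searched on both strands for letters known to be bound by nuclear respiratory factor 1 (NRF1), by ETS factors and by estrogen-related receptors, all of them regulators of mitochondrial genes. The letters of the NRF1 core, GCATGCGC, occurred in 7 of 71 promoters (9.86%), against 3.77% of 13192 promoter windows of all measured genes. The ETS letters, CCGGAAG, occurred in 19 (26.8%, against 12.1%) and the estrogen-related receptor letters, AAGGTCA, in 6 (8.45%, against 2.95%). Any of these letters occurred in 25 of the 71 promoters (35.2%), against 17.9% of all windows. Of the 7 genes that fell in fibrotic bronchi 6 had a promoter sequence, and 1 of these, that of Atp5mg, held any of the letters. The promoters of Atp5mg, which holds all 3 motifs, and of Cox7a1, which holds none, are shown because these were the genes of complexes V and IV that fell. Capitals mark the NRF1 core, the ETS letters and the receptor letters, in this order, the latter 2 on the opposite strand, and the motifs do not overlap. The first is at chr8:54130408-54130657 on the minus strand, the second at chr1:94568966-94569215 on the plus strand.
Atp5mg: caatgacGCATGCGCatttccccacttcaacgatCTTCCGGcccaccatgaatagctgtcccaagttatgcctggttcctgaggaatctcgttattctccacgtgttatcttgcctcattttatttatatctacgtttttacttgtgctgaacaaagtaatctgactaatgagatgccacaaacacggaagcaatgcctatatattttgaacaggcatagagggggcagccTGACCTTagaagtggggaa
Cox7a1: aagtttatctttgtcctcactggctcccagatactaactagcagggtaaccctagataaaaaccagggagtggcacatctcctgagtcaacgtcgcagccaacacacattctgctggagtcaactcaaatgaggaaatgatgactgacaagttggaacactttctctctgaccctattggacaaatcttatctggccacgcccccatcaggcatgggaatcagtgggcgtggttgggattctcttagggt
In Atp5mg the NRF1 core lies 243 to 236 bases before the start, the ETS letters 216 to 210 bases and the receptor letters 19 to 13 bases before it. A match is a description of the sequence and not evidence of binding.

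Because Cox7a1 is a muscle form, muscle markers were set beside it. The summed linear signal of 8 skeletal muscle markers ranged from 9550 to 15403 in controls, from 7122 to 8941 in fibrotic bronchi and from 11779 to 15867 in nonfibrotic bronchi, so that the fibrotic arrays lay under all others. Most of this sum came from Myh1, a fast muscle myosin, while Acta1, Ckm, Myh2 and Myh4 had means under the level of absent transcripts in controls, and none of the 8 markers was called in fibrotic bronchi. Of 17 cardiac markers, Tnni3, cardiac troponin I, fell (adjusted p = 1.35e-07), by 4.08 on the log2 scale with values under 6.52 raised to that level, and its log2 signals were from 10.35 to 11.35 in controls, 5.68, 5.79 and 6.78 in fibrotic and 9.61, 10.52 and 9.84 in nonfibrotic bronchi. The other 16 cardiac markers were not called, and Myh6, Myh7, Nppa and Nppb had means under the level of absent transcripts in controls. Some of the 16 were higher in fibrotic bronchi than in controls. With low values raised in the same way, Tnnt2 differed by 1.54 and Mybpc3 by 1.45, and Nppb was at least 1.95-fold higher. The summed cardiac signal ranged from 2814 to 5305 in controls, 3736 to 4858 in fibrotic and 2606 to 3357 in nonfibrotic bronchi. Smooth muscle markers, with sums from 10832 to 42399 in controls, 13708 to 30411 in fibrotic and 26050 to 29909 in nonfibrotic bronchi, overlapped between groups, and none of 11 was called. The part of muscle in the Cox7a1 result was not tested.

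Other tissue-restricted forms of complex IV subunits were dim. Cox6a2, the muscle partner of Cox6a1, had log2 signals from 7.31 to 8.25 in controls, of 7.17, 6.20 and 5.20 in fibrotic bronchi and of 6.14, 3.11 and 5.84 in nonfibrotic bronchi. All nonfibrotic arrays lay under the level of absent transcripts, so the gene was at least 2.13-fold lower than in controls (adjusted p = 0.0319). Cox4i2, the form known from lung, ranged from 5.17 to 7.16 in controls and from 7.13 to 7.51 in fibrotic bronchi (adjusted p = 0.252). Cox6b2, known from testis, ranged from 5.82 to 8.70 in controls and from 7.46 to 8.12 in fibrotic bronchi (adjusted p = 0.425). Cox8b exceeded the level of absent transcripts on only 2 arrays, both nonfibrotic. Ndufa4l2, a paralog of Ndufa4, ranged from 5.54 to 6.68 in controls and was 5.97, 8.02 and 7.92 in fibrotic bronchi (adjusted p = 0.286).

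**Figure D4:**
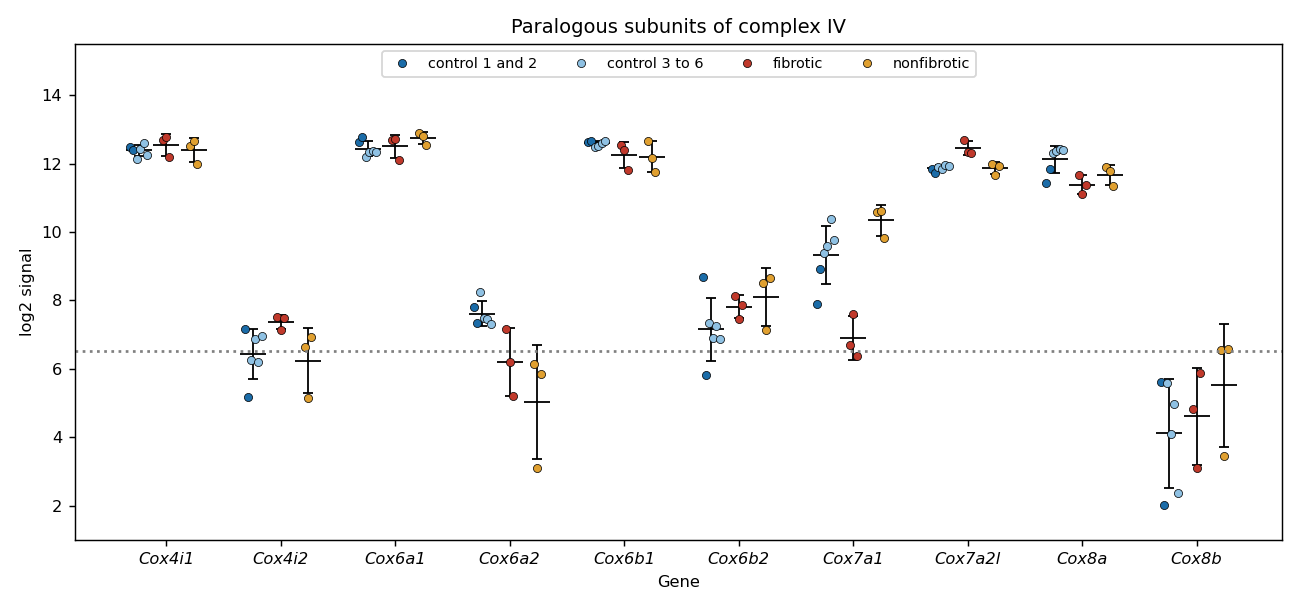
Log2 signal on each array of complex IV subunits that have a paralog, with group means and SD as black bars and the highest signal of absent transcripts (6.52) as a dotted line. The forms present in most cells (Cox4i1, Cox6a1, Cox6b1) lie near 12.5 in every group, and among the dimmer forms Cox7a1 separates fibrotic bronchi (6.39 to 7.61) from nonfibrotic bronchi (9.83 to 10.63).

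In nonfibrotic bronchi no gene passed the test against controls, where 0.436% of all genes fell and 0.183% rose. With limma, 7 genes fell (8.86%) and 1 rose at an adjusted p under 0.05, at which 3.72% of all genes fell and 2.84% rose. At the stricter threshold used for calls, where no gene passed with all arrays, 4 genes fell when nonfibrotic array 4 was left out. The comparisons with fibrotic and with nonfibrotic bronchi share the control arrays. The median difference was -0.32 (0.09 over all probe sets), and 59 of 79 differences were negative. It was -0.18 without nonfibrotic array 10 and -0.51 without nonfibrotic array 4. The medians of the complexes were -0.54 for complex I, -0.43 for complex II, -0.42 for complex III, 0.00 for complex IV and -0.32 for complex V. With controls 1 and 2 alone they were -0.16, -0.18, -0.28, 0.08 and -0.29 in the same order, and with controls 3 to 6 alone -0.60, -0.57, -0.38, 0.02 and -0.50. Without nonfibrotic array 10 the median of complex I was -0.30 and that of complex V -0.18, and without nonfibrotic array 4 that of complex II was -0.79. That of complex IV ranged from -0.06 to 0.14 without 1 nonfibrotic array. Nonfibrotic arrays lay under all controls for 11 genes (13.9%, against 6.37% of all genes) and above them for 2 (8.4% of all genes). Ciliated cell markers summed to between 43584 and 64322 in these arrays, a range that overlapped with controls, and 1 of 13, Dnah1, fell. Club cell markers fell for 4 of 13 genes, Scgb3a1, Cyp2a3, Pon1 and Hp (30.8%, against 0.436% of all genes), with a median of -1.61, and their summed signal was from 82033 to 192746 in controls and from 59581 to 104033 in nonfibrotic bronchi. Their part in the differences was not tested.

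The smallest p-values in nonfibrotic bronchi belonged to the ATP synthase. Atp5po, a subunit of its stalk, had log2 signals from 11.51 to 12.05 in controls, of 11.09, 10.07 and 9.68 in nonfibrotic bronchi and of 11.37, 10.65 and 10.47 in fibrotic bronchi. All exposed arrays lay under all controls, and the nonfibrotic difference was -1.52 ± 0.29 (SE, adjusted p = 0.0113). Atp5f1b differed by -0.86 (adjusted p = 0.0214) and Atp5f1a by -1.01 (adjusted p = 0.0224). Atp5if1, an inhibitor of ATP hydrolysis by the synthase, had the only positive difference at an adjusted p under 0.05 in nonfibrotic bronchi. Its log2 signals of 12.35, 12.57 and 12.34 lay above all controls, which ranged from 11.53 to 11.97, and the difference was 0.67 (adjusted p = 0.0405). Cox7c of complex IV also lay above all controls on the nonfibrotic arrays, and Uqcrq of complex III differed by -0.84 (adjusted p = 0.0562).

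The sets of controls mattered here too. Against controls 3 to 6 alone 8 genes fell (10.1%, against 1.98% of all genes) and 1 rose (2.23% of all genes), with a median of -0.46. Of the 8 genes, 6 belonged to complex V, and Ndufa1 was the one that rose, by 0.77 (adjusted p = 0.00645). Against controls 1 and 2 alone the median was -0.08 and none was called, as for nearly all genes, of which 0.0141% fell.

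Between fibrotic and nonfibrotic bronchi the median difference over the 79 genes was -0.02 (from -0.18 to 0.06 without 1 array). It was -0.06 for complex I, 0.09 for complex II, 0.00 for complex III, -0.02 for complex IV and -0.02 for complex V. Fibrotic arrays lay under nonfibrotic arrays for 5 genes, against 13.3% of all genes, and above them for 4, against 14.1%. Intervals of single genes were wide. That of Ndufa3 ran from -0.87 to 0.20, that of Atp5f1a from -0.44 to 0.66 and that of Uqcr11 from -0.57 to 0.57.

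Other mitochondrial gene groups were measured for comparison. Of all genes, 8.38% fell in fibrotic bronchi and 4.13% rose. Of 45 assembly factors of the complexes 1 fell (2.22%), with a median of -0.23, and of 22 electron carriers and partner enzymes 2 fell (9.09%), with a median of -0.27. Of 22 genes of the citric acid cycle and pyruvate dehydrogenase 21 had negative differences, with a median of -0.54 (-0.34 against controls 1 and 2 alone and -0.83 against controls 3 to 6 alone), and 1 fell (4.55%), Idh3a (-1.67, adjusted p = 0.00102). Of 73 mitochondrial ribosomal proteins 4 fell (5.48%), with a median of -0.19, and of 30 carriers and membrane proteins 2 fell (6.67%), with a median of 0.14 that was -0.03 against controls 3 to 6 alone. None of 48 cytosolic ribosomal proteins was called, and their median was 0.18. Of 36 proteasome subunits 1 rose (2.78%), Psmb8, and the median was 0.21. The citric acid cycle genes separated the control sets by a median of -0.59, and citrate synthase, Cs, was lower by 2.08 in controls 1 and 2 (adjusted p = 0.00312).

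Among 24 regulators of mitochondrial genes, 4 fell in fibrotic bronchi (16.7%, against 8.38% of all genes) and none rose (4.13% of all genes), and the median was -0.05. Ppargc1a, a coactivator of mitochondrial biogenesis, had log2 signals of 8.44, 7.06, 8.52, 8.57, 8.19 and 7.79 in controls, of 5.34, 5.34 and 6.41 in fibrotic bronchi and of 7.96, 9.26 and 8.12 in nonfibrotic bronchi. All fibrotic arrays lay under the level of absent transcripts, so the gene was at least 2.98-fold lower than in controls (adjusted p = 0.00157) and at least 3.80-fold lower than in nonfibrotic bronchi (adjusted p = 0.00367). It was the regulator called in both of these comparisons, in each of which Cox7a1 was also called. Unlike that of Cox7a1, the call of Ppargc1a between exposed tissues was lost in 9 alternative fits and kept in 20. Its limma adjusted p-values there ran from 0.00228 to 0.0416. A link between Ppargc1a and Cox7a1 was not tested.

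Esrrg, an orphan nuclear receptor that works with Ppargc1a, ranged from 8.07 to 8.74 in controls, was 4.54, 5.85 and 5.60 in fibrotic bronchi, all under the level of absent transcripts, and 6.30, 7.26 and 7.63 in nonfibrotic bronchi. It was at least 3.70-fold lower in fibrotic bronchi than in controls (adjusted p = 0.000104). Ppara, a receptor that drives fatty acid oxidation, was at least 2.04-fold lower (adjusted p = 0.00393), and Mterf2, a factor of mitochondrial transcription, had a mean of 8.58 in controls and of 6.14 in fibrotic bronchi (adjusted p = 0.000834). None of the 4 regulators passed the threshold against controls 1 and 2 alone, with an adjusted p of 0.162 for Ppargc1a, 0.0372 for Esrrg, 0.209 for Ppara and 0.121 for Mterf2, while all 4 passed it against controls 3 to 6 alone. With signals below 6.52 raised to that value, the fibrotic difference from all controls was -1.03 for Ppara and -1.90 for Mterf2. In nonfibrotic bronchi it was -0.78 for Ppara and -0.78 for Mterf2, and none of the 24 regulators was called there.

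The factors that bind promoters of many oxidative phosphorylation genes were not called. Nrf1 differed by 0.73 in fibrotic bronchi (adjusted p = 0.207), Gabpa, an ETS factor, by 0.41 (adjusted p = 0.361) and Esrra by -0.42 (adjusted p = 0.624). Tfam, which packs and transcribes mitochondrial DNA, differed by -0.79 in fibrotic and by -0.78 in nonfibrotic bronchi (adjusted p = 0.11 and 0.147).

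**Figure D5:**
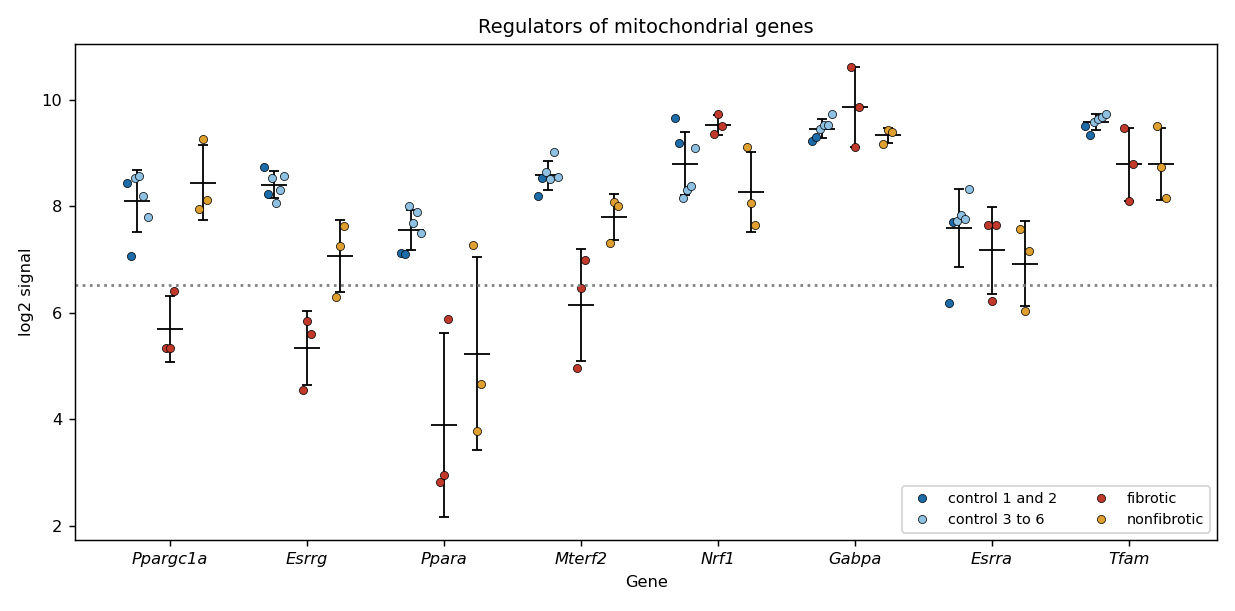
Log2 signal on each array of 8 regulators of mitochondrial genes, with group means and SD as black bars and the highest signal of absent transcripts (6.52) as a dotted line. Fibrotic arrays lie under the line for Ppargc1a, Esrrg and Ppara, while Nrf1, Gabpa and Tfam lie above it on every array.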

How the data were processed

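Laser-captured bronchi of 12 rat specimens were hybridized, after amplification of their RNA, to Affymetrix rat expression arrays. The authors computed the intensity values with MAS5 and deposited them on a linear scale, with the same trimmed mean signal on every array. Scaling to a mean makes a lower signal of bright genes depend on the spread of signals on that array. The version of MAS5 is not given in the sources used here.

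Analysis was on the log2 scale, and no pseudocount was added. Of 31099 probe sets, 57 Affymetrix controls were left out, and no filter on low signals was used. Among the probe sets that belong to one gene, that with the highest mean log2 signal stood for the gene. A model of the 3 groups was fitted in R 4.3.3 with limma 3.58.1 (lmFit, then eBayes with its trend option) and statmod 1.5.0, and p-values were adjusted by Benjamini-Hochberg over all probe sets within each comparison. The methods' error-weighted analysis of variance needs error weights that were not used here. The sets of controls were compared in a fit of 4 groups. The fits were tested on simulated data. The number of arrays limits the precision, and p-values measure the spread between these specimens.

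Members and gene lists were chosen with earlier results of these data known. The genes named were, for each complex, the 3 with the smallest p in fibrotic and the 2 in nonfibrotic bronchi, those called between exposed groups, all Sdh genes, paralogs of complex IV and of Ndufa4, and the 3 with the largest difference between sets of controls, of which Cox6c-ps1 and Ndufb8 lay near or under the level of absent transcripts. Ndufv3, Ndufs7, Uqcrc1, Uqcrc2, Cox5a, Cox6c, Atp5if1, Ndufa1 and genes outside the members were named in addition, after their values were seen. Alternatives changed the threshold, the filter, the floor, the pseudocount (16), the normalization, the variance model, the controls, the probe set and the arrays used. Figures were drawn with matplotlib 3.10.9.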

Additional observations from a re-analysis of the deposited data

Results flagged for a closer look

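Single controls stood apart from the other 5 controls for 6 genes, by more than Dixon's test allows for 6 values. Control 1 was low for Ndufb4, at a log2 signal of 11.77 against 12.23 to 12.48, for Ndufs7, at 10.44 against 11.24 to 11.37, for Uqcrq, at 11.89 against 12.23 to 12.37, and for Esrra, at 6.19 against 7.70 to 8.33. Control 2 was high for Uqcrc1, at 12.15 against 11.69 to 11.83, and for Cox5a, at 13.31 against 12.90 to 13.02. The test was run on 50 sets of 6 control values, and chance marks about 1 set in 20.

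Cox7a1 differed between the exposed tissues. It was lower in fibrotic than in nonfibrotic bronchi by a log2 difference of -3.45 (limma, adjusted p = 0.000607), with 3 of 3 fibrotic arrays under 3 of 3 nonfibrotic arrays.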

How the results depend on the processing

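No paired analysis was possible because the groups compared share fewer than 2 replicate numbers. The count of 7 genes called in fibrotic bronchi was 21 at an adjusted p under 0.05 or with array weights, 11 after quantile normalization, 1 with median centring or without the intensity trend, 17 with controls 3 to 6 alone (28 with quantile normalization as well) and 0 with controls 1 and 2 alone, with or without quantile normalization, with the label form as a fixed block, or by second probe sets, which only 8 genes have. Leaving out 1 array gave 0 to 14: 0 without fibrotic array 9, 2 without fibrotic array 3, 3 without fibrotic array 7, 4 without any one of controls 3 to 6 and 14 without control 1. In nonfibrotic bronchi the count of 0 became 8 at 0.05, 4 at an unadjusted p under 0.001 with a fold over 2, 1 with a pseudocount, a floor, quantile normalization or array weights, 9 with controls 3 to 6 alone (14 after quantile normalization) and 0 to 4 without 1 array, with 4 without nonfibrotic array 4 and 1 without fibrotic array 3. Between exposed tissues the count of 1 became 0 by second probe sets, which Cox7a1 lacks, and was 1 without any one array. Between the control sets the count of 1 became 4 at 0.05, 3 at an unadjusted p under 0.001 with a fold over 2, 2 with a floor, quantile normalization or array weights, 0 with median centring, without the trend or by second probe sets, and 0 to 2 without 1 array, with 0 without any one control. Median centring moved the median of all probe sets to 0.17 and that of the 79 genes to -0.28.

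The median of complex I in fibrotic bronchi was -0.23 after quantile normalization against controls 1 and 2. In nonfibrotic bronchi it was -0.16 against controls 1 and 2 or with the fixed block, -0.15 with quantile normalization as well, and from -0.64 to -0.30 without 1 array. That of complex IV in nonfibrotic bronchi was -0.19 after quantile normalization against controls 3 to 6.

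Differences that turned sign in fibrotic bronchi were not called. Ndufv3 was 0.043 by its second probe set. Sdhb was 0.042 with median centring, 0.038 with a random block, 0.20 against controls 1 and 2 or with the fixed block and 0.19 after quantile normalization against them, with a range from -0.14 to 0.18 without 1 array. Sdhd was -0.019 with array weights, -0.054 against controls 3 to 6, -0.053 with quantile normalization as well, -0.13 as a mean of probe sets and -0.37 by its second, with a range from -0.058 to 0.21 without 1 array. Cox4i1 was -0.015 after quantile normalization against controls 3 to 6. Cox5a was -0.065 after quantile normalization, -0.023 against controls 1 and 2 or with the fixed block and -0.12 after quantile normalization against controls 3 to 6. Cox6a1 was -0.049 after quantile normalization, -0.19 against controls 1 and 2 or with the fixed block, -0.008 with the random block, -0.14 and -0.0033 after quantile normalization against controls 1 and 2 and against controls 3 to 6, and from -0.041 to 0.26 without 1 array. Cox6c was -0.0047 after quantile normalization and -0.088 with controls 3 to 6 as well. Esrra was 0.22 against controls 1 and 2 or with the fixed block and 0.19 after quantile normalization, and ranged from -0.70 to 0.050 without 1 array. The causes were not tested.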
